A study of Mus musculus with 8 samples.

Results

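The immediate-early genes measured here were Fos, Fosb, Jun, Junb, Jund, Egr1, Egr2, Ier2 and Ier3, with Atf3 beside them. All 10 genes were present among the 18194 genes of the arrays. They were read by 13 probe sets that the platform annotation assigns to exactly 1 of these symbols, and the brightest probe set, by its mean over all 8 arrays, stands for each gene. RNA came from the mandibular arch, the embryonic tissue of the lower jaw, of C57BL/6J mice at embryonic day 11.5. The 4 control arches were Alk5 fl/fl and the 4 mutant arches carried Wnt1-Cre in addition, so both groups have the floxed alleles and differ by the Cre driver. Alk5, also called Tgfbr1, encodes the type I TGF-beta receptor, and Wnt1-Cre acts in the neural crest lineage. The control labels name no Cre, so the driver and the loss of the receptor cannot be told apart. The whole arch also holds mesodermal, epithelial, endothelial and blood cells outside that lineage, and in such bulk RNA fewer cells of a type and less RNA per cell cannot be told apart.

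Immediate-early genes are transcribed within minutes of a stimulus such as a growth factor, with no need for new protein synthesis. Many of their transcripts are short-lived, so for those a steady level can mean continuing or recent induction. FOS and JUN proteins pair through leucine zippers to form AP-1, which binds a short palindrome in target genes, and EGR proteins are zinc finger factors that bind GC-rich sites. ATF3, a related leucine zipper protein of the ATF/CREB group, is induced by many stresses and also by TGF-beta, and it can act as a partner of Smad3.

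The sequence just before the transcription start is shown for Atf3, the member that changed, and for Fos and Jun, the first known members of the AP-1 families, because each holds letters close to the motifs of ATF/CREB and AP-1 proteins. Windows of 250 bases before the start were taken from RefSeq (GRCm38.p6) for 8 of the 10 members. Egr1 and Ier2 were not matched. Capitals mark TTACGTCA in Atf3 (chr1:191183334-191183583, minus strand), each TGACG in Fos (chr12:85473640-85473889, plus strand) and TGACATCA in Jun (chr4:95052223-95052472, minus strand).
Atf3: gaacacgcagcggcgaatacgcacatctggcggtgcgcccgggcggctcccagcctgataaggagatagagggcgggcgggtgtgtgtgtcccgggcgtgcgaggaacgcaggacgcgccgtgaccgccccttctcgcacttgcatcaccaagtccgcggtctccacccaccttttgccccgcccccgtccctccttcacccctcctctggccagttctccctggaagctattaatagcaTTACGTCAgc
Fos: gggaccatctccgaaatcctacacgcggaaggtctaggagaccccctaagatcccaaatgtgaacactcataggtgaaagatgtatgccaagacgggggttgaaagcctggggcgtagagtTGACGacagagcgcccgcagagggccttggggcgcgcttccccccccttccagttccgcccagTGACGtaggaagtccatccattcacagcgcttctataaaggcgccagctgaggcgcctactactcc
Jun: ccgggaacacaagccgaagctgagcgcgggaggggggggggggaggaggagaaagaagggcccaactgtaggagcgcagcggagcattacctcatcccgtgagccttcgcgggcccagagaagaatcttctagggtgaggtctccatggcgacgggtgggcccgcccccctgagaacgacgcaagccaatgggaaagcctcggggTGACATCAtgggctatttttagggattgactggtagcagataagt

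Both strands were searched for 7 motifs in these windows and in all 32851 windows of the same length. The TTACGTCA of Atf3, which overlaps a TGACG on the other strand, ends 2 bases before the start, and 0.447% of all windows hold these letters. The TGACATCA of Jun stood in 2.93% of all windows. TGACG, the core of the cyclic AMP response element, was present in 7 of the 12 windows of the 8 genes (1 each of Fos, Fosb, Junb and Atf3, and 3 overlapping ones of Egr2) and in 17.8% of all windows. The full element TGACGTCA and the AP-1 letters TGANTCA were found in 0 of the 8 genes, against 1.55% and 6.75% of all windows. A CArG box, the binding motif of serum response factor, was found in windows of Egr2, which has several overlapping start sites, and in 1.47% of all windows. The Egr motif GCGNGGGCG was found in Fosb and in 4.7% of all windows. These matches describe letters in short windows, and TTACGTCA and TGACATCA were added after the windows had been read.

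The deposited log2 values had array medians between 6.28 and 6.42. Mutant replicate 3 stood apart, with an SD over all probe sets of 2.42 (the others, 2.52 to 2.56) and a highest correlation with any other array of 0.991 against 0.996 to 0.997. Tgfbr1 itself read 12.79 in controls and 12.98 in mutants, a change of 0.19 (limma adjusted p = 0.232), and which of its exons the probe set reads is not known here. The 9 arch mesenchyme markers, among them Prrx1, Msx1 and Hand2, averaged 10.37 to 10.74 on every array, where the median gene had a mean of 7.63. The labels number the arches without saying that each came from its own litter, so the p-values reflect the spread among these arches alone, part of it perhaps technical, and the number of arrays limits the precision.

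Atf3 was the member that changed. In the 4 controls it read 6.77, 6.62, 6.81 and 6.54, and in the 4 mutants 7.13, 7.07, 7.16 and 7.06. Every mutant array lay above every control array, and the mutant values sat within 0.10 of each other. The control mean was 6.68 ± 0.127 and the mutant mean 7.10 ± 0.0467 (SD, n = 4 each), a 1.34-fold rise. The log2 fold change was 0.42 ± 0.0792 (SE), and its 95% interval ran from 0.24 to 0.60 (limma adjusted p = 0.0301 over all genes). The two-sided exact permutation p was 0.0286, the smallest that 70 relabelings of the arrays can give. The spread of Atf3 among mutants ranked in the lowest 4.94% of genes.

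Of the 10 members, 1 rose, 0 fell and 9 did not pass, where 2.14% of all genes passed and 0.835% of all genes rose. Groups did not overlap for 1 member, Atf3, against 10.3% of all genes, 3.27% with the mutants higher. At an unadjusted p under 0.05 there were 2 members, Atf3 and Egr1, against 13.5% of all genes, 4.52% with the mutants higher. Log2 fold changes were above 0 for 8 members and below 0 for 2, with a median of 0.10, beside a median of -0.01 over all genes and 48% of genes above 0.

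The Atf3 call was close to the threshold. With 1 array left out, the change stayed between 0.37 and 0.46. The limma adjusted p rose above 0.05, so that the call was lost, without control 1 (0.0652), control 2 (0.122), control 3 (0.0694) or control 4 (0.051). The same held without mutant 1 (0.0794), mutant 2 (0.0541) or mutant 4 (0.0894). Without mutant 3 the adjusted p was 0.0313. With each array centred on its median it was 0.0522, and in a fit over all 45101 probe sets 0.0513.

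**Figure D1:**
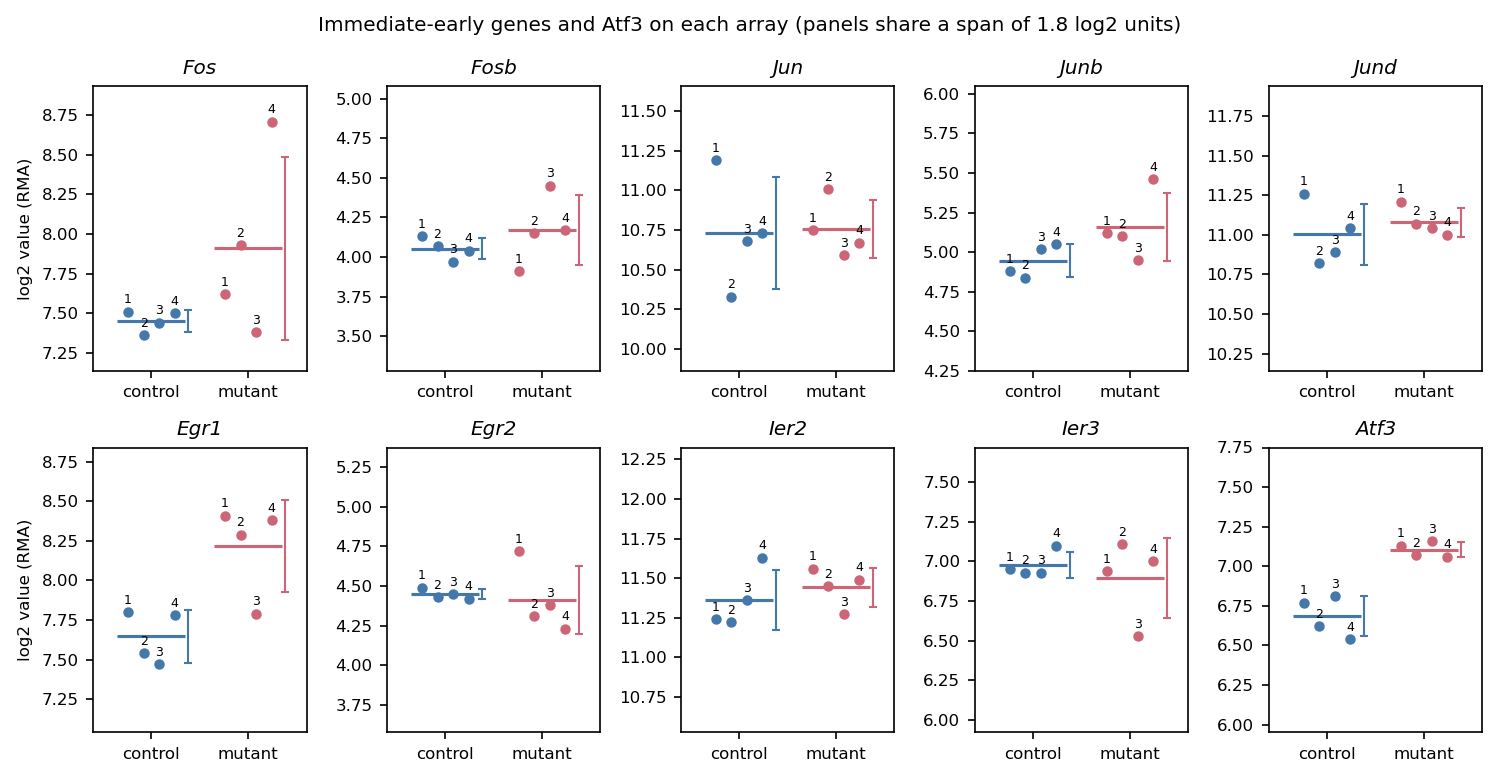
Log2 value of each of the 10 members on every array, controls in blue and mutants in red, with the replicate number above each point, the group mean as a line and its SD as the bar beside it (n = 4). Atf3 is the panel in which all mutant points, 7.06 to 7.16, lie above all control points, 6.54 to 6.81, and the Fos mutants spread from 7.38 to 8.71.

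Egr1, which encodes a zinc finger factor induced by serum and growth factors, showed the largest log2 fold change of the members but did not pass. The controls read 7.80, 7.54, 7.47 and 7.78, and the mutants 8.41, 8.29, 7.79 and 8.38. Mutants 1, 2 and 4 lay above all controls, whereas mutant 3 lay among them, just below control 1. The group means were 7.65 ± 0.169 and 8.22 ± 0.287 (SD, n = 4 each). The log2 fold change was 0.57 ± 0.144 (SE), or 1.49-fold, and its 95% interval ran from 0.25 to 0.90. The limma adjusted p was 0.088 and the two-sided exact permutation p was 0.0571. Without mutant 3, the array that stood apart, the change was 0.71 and its adjusted p 0.0106. Leaving out any other single array gave 0.51 to 0.63 and did not bring it past the threshold. A further quantile normalization (adjusted p = 0.0202) and array weights (adjusted p = 0.00251) did.

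Egr2, the Krox20 gene of hindbrain segments and Schwann cells, was dim, its brightest probe set lying in the lowest 9.37% of genes by mean. The controls averaged 4.45 ± 0.0299 and the mutants 4.41 ± 0.213 (SD, n = 4 each). Mutant 1 was the highest array at 4.72 and mutant 4 the lowest at 4.23, so the groups overlapped fully. The log2 fold change was -0.04 (interval -0.27 to 0.19), and its second probe set differed by -0.03.

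Fos, the founding AP-1 gene, was the member that varied most among mutants. The controls lay close together at 7.51, 7.36, 7.44 and 7.50, while the mutants read 7.62, 7.93, 7.38 and 8.71. Mutant 4 was far above all others, mutants 1 and 2 were above the controls by less, and mutant 3 was within them. The SD was 0.0687 in controls and 0.576 in mutants, beside medians over all genes of 0.095 and 0.173, and the mutant SD was at the 99.6th percentile of genes. The log2 fold change was 0.46 ± 0.237 (SE), and its interval ran from -0.07 to 0.99. It did not pass by limma (adjusted p = 0.457) or by a two-sided exact permutation test (p = 0.143). Without mutant 4 it was 0.19 (adjusted p = 0.644), and without mutant 3 it was 0.63.

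Its relative Fosb, another FOS protein gene, was dim, with a control mean of 4.05 ± 0.0675 and a mutant mean of 4.17 ± 0.22 (SD, n = 4 each). Mutant 3 was the highest array at 4.45 and mutant 1 the lowest at 3.91. The difference of 0.12 (interval -0.13 to 0.36) did not pass, with a limma adjusted p = 0.707.

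Jun, the main JUN partner of FOS, did not differ between the groups beyond its spread. The controls read 11.19, 10.33, 10.68 and 10.73, and the mutants 10.75, 11.01, 10.59 and 10.67. All mutants lay inside the range set by controls 1 and 2, the highest and the lowest array. The log2 fold change was 0.03, with an interval of -0.35 to 0.40 (limma adjusted p = 0.963). The second probe set of Jun ranked controls 1 and 2 at the same ends, at 10.58 and 9.72, and differed by 0.09 between groups. The control SD of Jun, 0.353, was at the 97.5th percentile of genes.

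Jund, the JUN family member known for steady expression, followed the same order in controls, from 11.26 in control 1 to 10.82 in control 2, with mutants between 11.00 and 11.21. Its log2 fold change was 0.08 (interval -0.16 to 0.31, limma adjusted p = 0.805), and its dim second probe set gave -0.03. Junb, which can oppose Jun at AP-1 sites, was dim. It read 4.88, 4.84, 5.02 and 5.05 in controls and 5.12, 5.10, 4.95 and 5.46 in mutants. Mutants 1, 2 and 4 were above all controls and mutant 4 was the highest, as it was for Fos. The log2 fold change of Junb was 0.21 ± 0.11 (SE), with an interval of -0.04 to 0.46 (limma adjusted p = 0.471).

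Ier2, which encodes a small nuclear protein of the early response, was bright on every array. The controls spanned 11.22 to 11.63 and the mutants 11.27 to 11.56, so that the mutants lay inside the controls' range. Its log2 fold change was 0.08 (interval -0.16 to 0.32, limma adjusted p = 0.789). Ier3, an early gene linked to cell survival, read 6.95, 6.93, 6.93 and 7.10 in controls and 6.94, 7.11, 6.53 and 7.00 in mutants. Mutant 3 was lower than all other arrays, and the remaining mutants lay at the level of the controls. The difference of Ier3 was -0.09 (interval -0.36 to 0.18, limma adjusted p = 0.808).

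**Figure D2:**
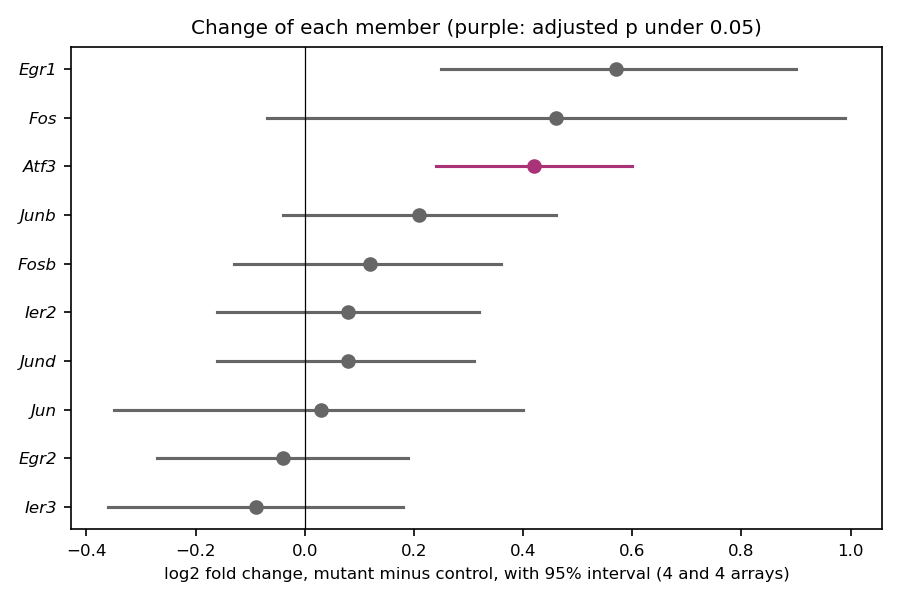
Log2 fold change of each member, mutant minus control, as a point with its 95% interval from limma, purple where the adjusted p was under 0.05. The intervals of Atf3 (0.24 to 0.60) and Egr1 (0.25 to 0.90) lie above 0, that of Fos (-0.07 to 0.99) is the widest, and the other 7 cross 0.

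Different arrays held the extreme values of different members. Mutant 4 had the highest value of Fos and Junb, mutant 1 of Egr1 and Egr2, mutant 3 of Fosb and Atf3, and control 1 of Jun and Jund. Control 4 was highest for Ier2 and mutant 2 for Ier3. Control 2 had the lowest value of 5 members, namely Fos, Jun, Junb, Jund and Ier2. The median deviation of the 10 members from their control means was 0.18 in mutant 1, 0.14 in mutant 2, -0.03 in mutant 3 and 0.12 in mutant 4, and it ranged from -0.10 to 0.07 among controls.

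**Figure D3:**
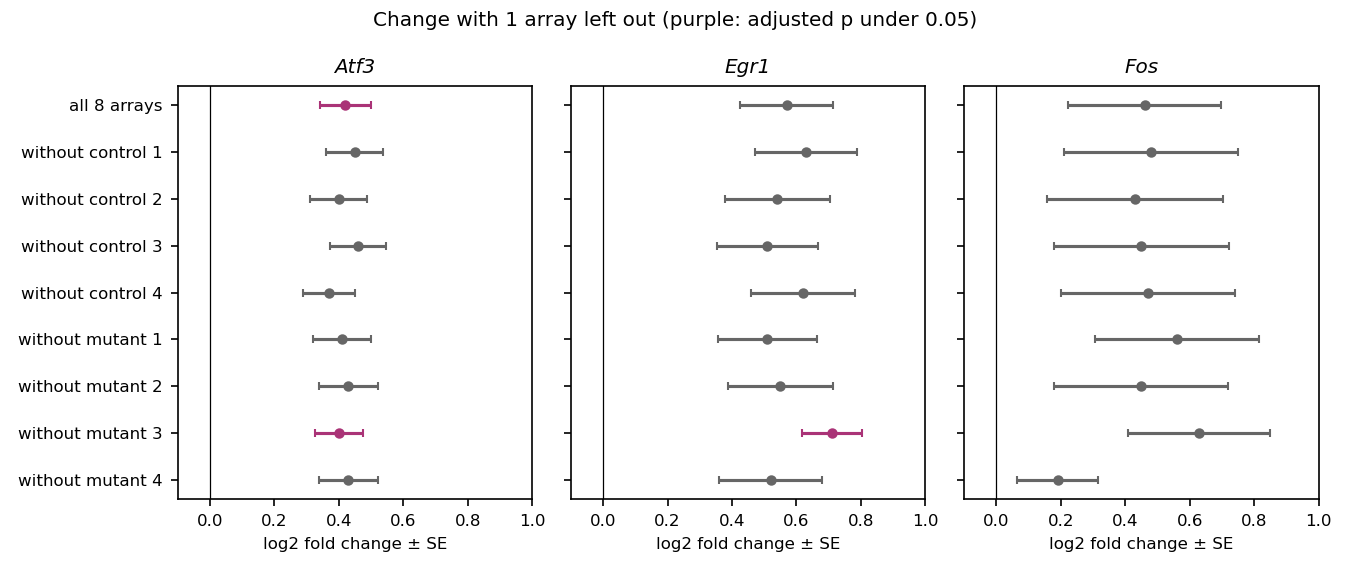
Log2 fold change ± SE of Atf3, Egr1 and Fos with all 8 arrays and with each array left out, purple where the limma adjusted p was under 0.05. Atf3 keeps its size at 0.37 to 0.46, Egr1 is largest without mutant 3 (0.71), and Fos is smallest without mutant 4 (0.19).

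Markers of macrophages were higher in the same mutant arrays. Of 12 listed, such as C1qa, Csf1r and Adgre1, 9 rose, none fell and 3 did not pass, beside rises in 0.835% of all genes. The median change of these markers was 1.12 on the log2 scale. Their mean log2 value was 7.02 to 7.15 in controls and 7.78 to 8.33 in mutants. It was lowest among mutants in replicate 3, where Egr1 was also lowest and Atf3 highest. Mutant 3, the array that stood apart, was also lowest among mutants for the means of arch mesenchyme (10.37), surface epithelium (9.27) and endothelium markers (8.33). It was not lowest for the erythroid and skeletal muscle precursor lists. On the log2 scale of the summed linear signal the macrophage list ran from 10.97 to 11.10 in controls and 11.89 to 12.36 in mutants. No marker can read 0 on this scale. Of the marker lists for arch mesenchyme, surface epithelium, endothelium, erythroid cells and skeletal muscle precursors, 0 of 29 measured genes passed by limma and 7 had an unadjusted p under 0.05 (13.5% of all genes did), with medians of -0.16, -0.19, -0.01, -0.13 and -0.02. Of the 9 arch mesenchyme markers, 4 lay below every control in all mutants, against 7.02% of all genes: Msx1 (-0.58), Prrx1 (-0.34), Hand2 (-0.27) and Twist1 (-0.16). Over the whole list 7 changes were below 0 and 2 above it, Dlx5 (0.18) and Tfap2a (0.17), both with overlapping groups. The part of any of these cell types in the Atf3 and Egr1 values was not tested.

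Other early-response genes, listed by their known induction by growth factors or stress, were lower where they changed. Of 24 measured, 6 fell, 0 rose and 18 did not pass, beside falls in 1.31% of all genes, and the median was -0.12. Nfkbiz, an atypical inhibitor of NF-kappaB, fell 2.36-fold, from 7.89, 8.47, 8.20 and 7.63 in controls to 6.94, 7.00, 6.49 and 6.79 in mutants. Its log2 fold change was -1.24 ± 0.18 (SE, limma adjusted p = 0.0108), or -0.51 over the mean of its probe sets. Ccn1, a matricellular protein gene of the serum response, fell from 8.97 to 8.44 (-0.53, limma adjusted p = 0.00762), or by 0.35 over the mean of its probe sets. Mutant values of both genes lay below every control, as they did for 7.02% of all genes.

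The remaining falls were Gadd45b, a stress gene that activates p38 signalling (-0.68 ± 0.137), the polo-like kinase gene Plk2 (-0.67 ± 0.106), the cytokine signalling inhibitor Socs3 (-0.48 ± 0.104) and Ier5 (-0.45 ± 0.0822, ± SE each). None of these 4 overlapped between groups, but they were named for passing, so this is no separate support. Of the 24 measured, 7 lay lower without overlap and 1 higher, against 7.02% and 3.27% of all genes. Over the mean of each gene's probe sets, Plk2 (-0.34, limma adjusted p = 0.0658), Socs3 (-0.35, 0.0712) and Ier5 (-0.38, 0.0779) did not pass. Gadd45b (-0.49, 0.0362) still did. Ccn1 and Nfkbiz passed with any single array left out, but the count of falls dropped from 6 to 2 without control 1, 2 or 3 or mutant 4. Falls over all genes dropped in the same fits, from 238 to 66, 45, 44 and 40 in that order. Among the genes of this list that did not pass were Egr3 (0.23), Egr4 (-0.02), Nr4a1 (-0.14), Myc (0.10) and Btg2 (-0.02).

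None of the 11 AP-1 partners and relatives passed, with 2 above 0, 9 below it and a median of -0.03. By limma 3 had an unadjusted p under 0.05, against 13.5% of all genes. The 2 with the smallest p were the leucine zipper gene Batf3 and the FOS family gene Fosl2. Batf3 read 8.45 in controls and 8.06 in mutants (-0.39 ± 0.0936 SE, limma adjusted p = 0.0737). Its mutants lay below every control, as for 7.02% of all genes, but it was named for its small p. Fosl2 read 8.08, 8.53, 8.27 and 7.27 in controls and 7.28, 7.38, 6.45 and 6.86 in mutants, and control 4 was below mutants 1 and 2. Its log2 fold change was -1.04 ± 0.28 (SE, limma adjusted p = 0.109), and -0.44 over the mean of its probe sets. Without control 4 it was -1.30 (limma adjusted p = 0.0172), when 2 genes of the list passed. The genes passing in all then numbered 509, against 390 with all arrays. Leaving out any other single array did not bring Fosl2 past the threshold (limma adjusted p from 0.0995 to 0.314). Fos and Fosl2 thus had changes of opposite sign, and neither passed over all arrays.

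Among 16 regulators that act upstream of these genes, 1 fell, 0 rose and 15 did not pass (median -0.04), beside falls in 1.31% of all genes. The fall was Elk3, a ternary complex factor that joins serum response factor at CArG boxes. Its controls lay between 10.90 and 11.01 and its mutants between 10.27 and 10.69, a change of -0.47 ± 0.0922 (SE, limma adjusted p = 0.0361). Elk3 lost the call without any single array but mutant 2 or 3. In 2 others every mutant lay above every control, against 3.27% of all genes. These were the kinase genes Rps6ka3 (0.26, limma adjusted p = 0.158) and Mapk14 (0.13, limma adjusted p = 0.464), and neither passed. Srf itself differed by -0.10, Elk1 by -0.10 and Creb1 by -0.01.

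Of 10 negative feedback genes 0 passed (median 0.02), with 1 at an unadjusted p under 0.05 by limma, against 13.5% of all genes. Spry4, an inhibitor of growth factor signalling, was at -0.38 (adjusted p = 0.111), at -0.15 over the mean of its probe sets, and at -0.45 without control 4 (adjusted p = 0.0495). Leaving out any other single array did not bring Spry4 past the threshold (limma adjusted p from 0.11 to 0.293). Nab2, a corepressor of EGR proteins, was at -0.20 (adjusted p = 0.378). The phosphatase genes Dusp1 (0.03) and Dusp6 (0.03) were near 0.

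Atf3 is also a known target of ATF4 in the integrated stress response. Of 14 genes of that pathway 0 passed (median -0.06), with 2 at an unadjusted p under 0.05 by limma, where 13.5% of all genes had one. These were Ddit3, which encodes CHOP (-0.27, adjusted p = 0.192; -0.11 over the mean of its probe sets, adjusted p = 0.569), and Nupr1 (0.26, adjusted p = 0.335). Atf4 (0.02), Trib3 (-0.26), Asns (-0.12) and Chac1 (-0.01) did not pass. Of 8 heat shock genes 1 fell, the inducible chaperone gene Hspa1b, and 7 did not pass (median -0.03), beside falls in 1.31% of all genes. Hspa1b read 9.25 to 9.33 in controls and 8.37 to 8.92 in mutants (-0.65 ± 0.109 SE, limma adjusted p = 0.0199), and it lost the call without control 1, 2 or 3.

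**Figure D4:**
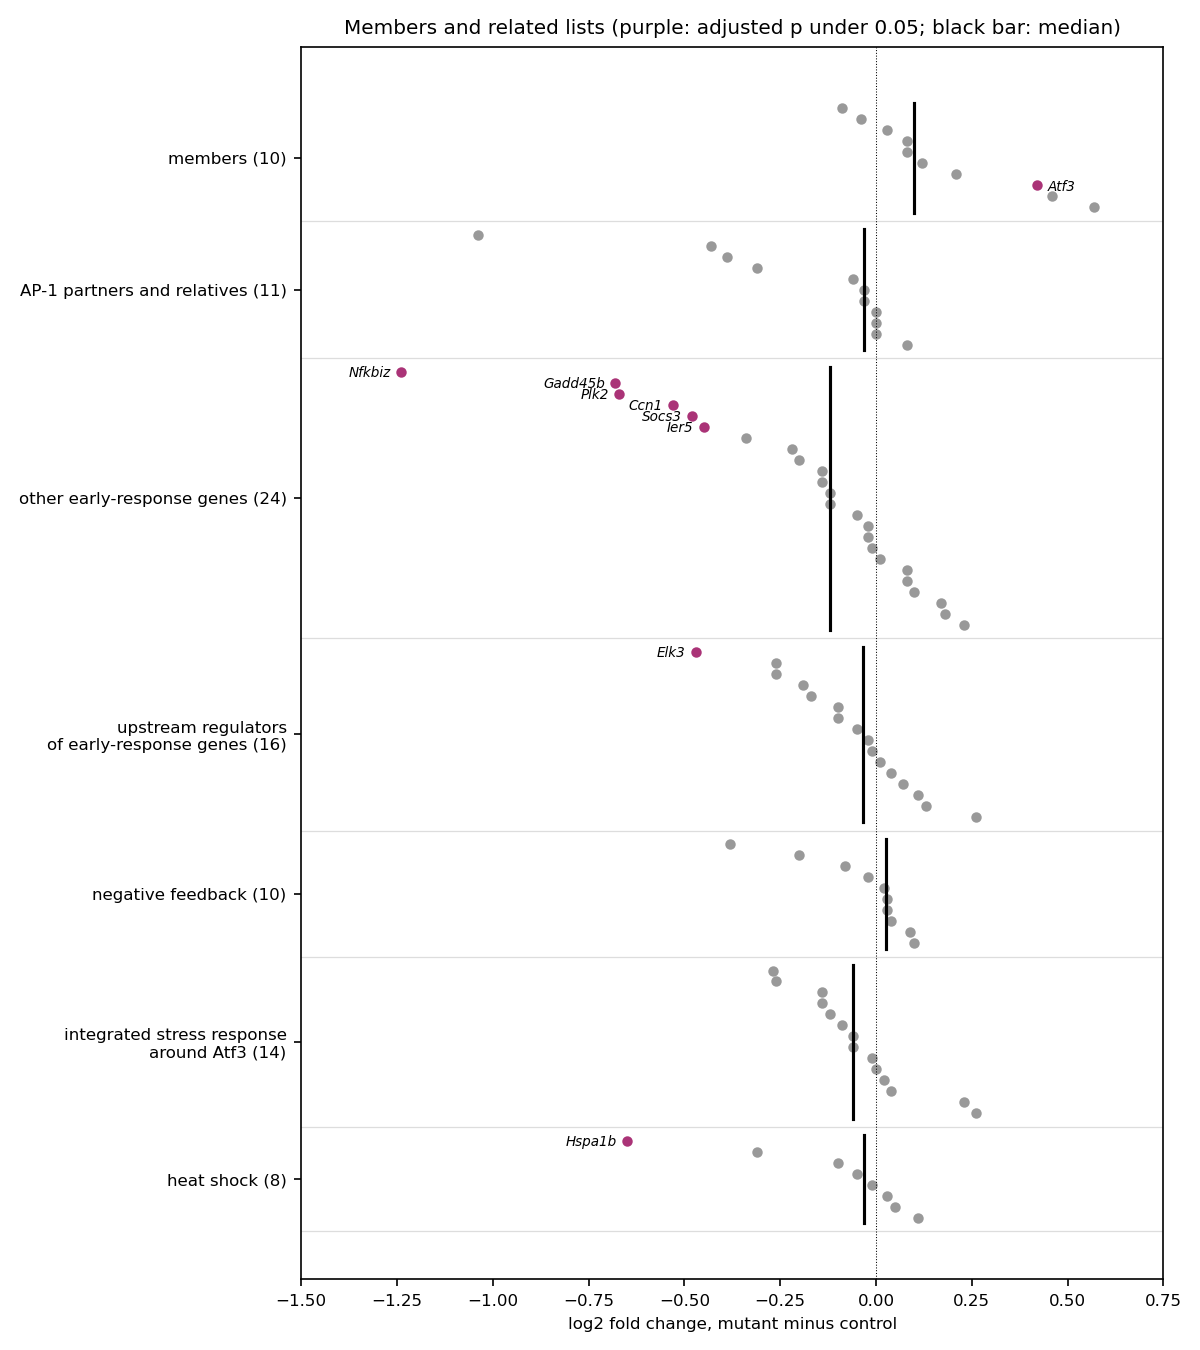
Log2 fold change, mutant minus control, of every member and of every measured gene of the 6 related lists, 1 point a gene, purple and named where the limma adjusted p was under 0.05, with the list's median as a black bar. Atf3 (0.42) is the single purple point above 0, and the 8 purple points of the related lists lie at -0.45 or below.

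The genes whose profiles over the 8 arrays were nearest to Atf3, by the root mean square difference of log2 values after each gene's mean was subtracted, were Wsb1, Efnb2, Rap2c, Bbc3 and Ctsd. They differed from it by 0.092 to 0.107, where Atf3 varied about its own mean by 0.226. Their profiles were picked to follow Atf3, so their differences between the groups, such as 0.45 for the apoptosis gene Bbc3 and 0.37 for the lysosomal protease gene Ctsd, come with that choice. Nearest to Egr1 were Dnajc1, Nabp1, Cdc14a, Slc40a1 and Yipf6, at 0.0927 to 0.111 against a variation of 0.352. Fos had no neighbour as close. Mt1, Nabp1, Msx2, Lactb and Kbtbd8 differed from it by 0.24 to 0.262 against its variation of 0.423. The search covered the 9097 genes above the median level.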

How the data were processed

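Expression was used as the authors deposited it, as log2 values per probe set for 8 Affymetrix arrays. Per the submitters' processing notes the values came from RMA, which corrects background, equalizes array distributions and summarizes probes (version not given in the sources used here), and which shrinks differences between dim probe sets. Of 45101 probe sets, 34958 had 1 gene symbol, 932 several and 9211 none in the platform annotation; 34754 were found in RefSeq (GRCm38.p6) through their Entrez identifier, with 0 symbols altered. The brightest probe set stood for each of 18194 genes.

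Mutants were compared with controls in limma 3.58.1 (R 4.3.3; lmFit, eBayes, no covariates), with Benjamini-Hochberg adjustment over all genes; rose and fell mean an adjusted p under 0.05. Members also had an exact permutation test. The members and lists were chosen with earlier results of these data known. Named list genes are those past the threshold, or else the 2 smallest p; others printed with a fold change were chosen after their values were seen. Profile neighbours are the 5 nearest. In 10 simulated runs over 18194 genes, the fit recovered 34.6% of genes shifted by 0.4 and 63.6% of those shifted by 0.6, with 5.24% false calls. The runs used independent normal noise with 1 SD per gene for all arrays. In the data the median SD was 0.095 in controls and 0.173 in mutants, so these rates need not hold here. Alternatives were other probe set summaries, normalizations, a level filter, variance models, array weights, a replicate block, a looser threshold and leaving out each array.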

Additional observations from a re-analysis of the deposited data

Results flagged for a closer look

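Ier3 read 7.10 in control replicate 4, while the other 3 controls lay at 6.93 to 6.95. The gap to the nearest of them, divided by the range of the group, was 0.885, above Dixon's 95% critical value for 4 samples. This was 1 of 20 groups tested (10 members in 2 groups), and chance gives about 1 in 20.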

How the results depend on the processing

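Fos, Fosb, Junb, Egr1, Ier2 and Atf3 kept their direction in all alternatives run. At an adjusted p under 0.10 there were 2 members (Atf3 and Egr1), 664 genes in all and 1 AP-1 relative. Averaging each gene's probe sets, 3 other early-response genes and 0 upstream regulators passed, beside 341 genes in all. With a further quantile normalization Egr1 passed (0.62), giving 2 members, 620 genes, 1 AP-1 relative and 0 heat shock genes. With arrays centred on their medians Atf3 (0.40) did not pass, leaving 0 members and 0 upstream regulators, beside 307 genes in all. Among genes above the median level, which leave 5 members and not Atf3, 0 members passed, beside 313 genes in all. With a mean-variance trend 2 upstream regulators passed, beside 578 genes in all. With array weights Egr1 (0.75) passed and Ier3 turned to 0.04, with 2 members, 1356 genes, 3 AP-1 relatives, 2 upstream regulators and 1 stress response gene past the threshold. The second probe set of Jund turned it to -0.03. The causes were not tested.

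Same-numbered arrays deviated together in 1 of 4 pairs (correlations of -0.124 to 0.406), so the numbers were not taken to pair the arches. With the replicate block Egr1 (0.57, limma adjusted p = 0.0387) passed, Atf3 (0.42, limma adjusted p = 0.0618) did not, and 0 upstream regulators passed, with 113 genes higher and 180 lower over all genes.

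With 1 array left out, Jun ranged from -0.11 to 0.18, turning below 0 without control 2 (-0.11) or mutant 2 (-0.06). Ier3 ranged from -0.16 to 0.04, above 0 without mutant 3, and Egr2 from -0.14 to 0.02, above 0 without mutant 4. Egr1 ranged from 0.51 to 0.71 and Atf3 from 0.37 to 0.46. The count of members past the threshold ranged from 0 to 2, that of all genes from 104 to 618, of AP-1 relatives from 0 to 2, of other early-response genes from 2 to 6, and of upstream regulators, negative feedback genes and heat shock genes from 0 to 1.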
